A study of Rattus norvegicus with 20 samples.

Results

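Endothelial cells line the vessels of the kidney, and 10 genes that mark them were followed here in rats given a calcineurin inhibitor: Plvap, Pecam1, Cdh5, Kdr, Flt1, Tek, Emcn, Ehd3, Eng and Egfl7. The genes were taken by symbol from either deposited table and carried to the other by gene identifier. This found 9 of the 10 among the 32521 genes present in both tables, and Pecam1 was not analysed here. All 9 had enough fragments to be tested with each drug.

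RNA was sequenced in bulk from the entire kidneys of wild-type male Wistar rats aged 10 to 12 weeks, after 28 days of infusion from an osmotic minipump under the skin. Kidneys of rats given cyclosporine A (n = 4) were set against those of rats given saline, its vehicle (n = 4). Tacrolimus at a target trough plasma level of 3.5 ng/ml (n = 6) was compared with its own vehicle of 25% DMSO and 75% PEG500 (n = 6), called DMSO/PEG here. Between the drugs, the effects of drug, vehicle and table cannot be told apart, because none of the 3 was shared.

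Endothelium differs from one kidney vessel to another. The peritubular capillaries that surround the tubules are fenestrated, with a diaphragm across each pore, and Plvap is the protein from which those diaphragms are built. Mature glomerular capillaries have fenestrae that largely lack diaphragms, and Ehd3 is a marker of that endothelium. Kdr and Flt1 are receptors for vascular endothelial growth factor, which podocytes and tubule cells supply, and Tek is the angiopoietin receptor. Both drugs block calcineurin, a phosphatase that activates T cells, and injury to kidney vessels is a known side effect of the class.

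The promoters of Plvap, Eng and Kdr are shown because Plvap and Eng had the lowest and Kdr the highest change with cyclosporine A on the scale used for the main test. Each is the 250 bases before the annotated start in RefSeq (GRCr8), written 5′ to 3′ on the strand of the gene, at chr16:18231280-18231529 (minus strand), chr3:36332029-36332278 (plus strand) and chr14:32571813-32572062 (plus strand). Capitals mark the letters CGGAAG or AGGAAG on either strand, which hold the core bound by ETS factors, a family that drives many endothelial genes. The match is to letters only.
Plvap: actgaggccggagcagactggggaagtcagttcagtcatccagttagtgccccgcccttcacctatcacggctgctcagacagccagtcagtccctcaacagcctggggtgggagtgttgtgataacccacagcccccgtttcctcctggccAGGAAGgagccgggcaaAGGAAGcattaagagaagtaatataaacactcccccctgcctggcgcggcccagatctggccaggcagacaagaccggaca
Eng: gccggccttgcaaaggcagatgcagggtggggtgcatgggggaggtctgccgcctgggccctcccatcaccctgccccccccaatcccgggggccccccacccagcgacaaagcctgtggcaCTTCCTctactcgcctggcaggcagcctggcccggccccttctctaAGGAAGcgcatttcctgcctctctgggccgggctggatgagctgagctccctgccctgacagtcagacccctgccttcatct
Kdr: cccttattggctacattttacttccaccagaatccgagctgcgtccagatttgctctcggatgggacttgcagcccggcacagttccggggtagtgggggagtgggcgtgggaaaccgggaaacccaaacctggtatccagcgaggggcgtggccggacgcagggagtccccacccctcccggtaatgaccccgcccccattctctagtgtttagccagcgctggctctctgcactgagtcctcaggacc
Plvap had 2 matches, both AGGAAG, Eng had 2 and Kdr had 0. Promoters were found for 7 of the 9 genes, and 5 of these 7 genes (Plvap, Flt1, Emcn, Eng and Egfl7) had at least 1 match. Egfl7 has 2 promoters, 1 of them with no match, so 5 of 8 promoters held a match. Of all 33469 promoters of this length, 39.4% held at least 1. Plvap, with the lowest rescaled change of the 9, and Egfl7, with a rescaled change above 0, both held the letters.

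Libraries in the cyclosporine A table held 30465149 to 34303150 fragments and those of the tacrolimus comparison held 31670202 to 39358485. Mitochondrial genes took 49.7% to 68.6% of the fragments in saline libraries (mean 59.8% ± 7.97, SD, n = 4). In cyclosporine A libraries they took 80.2% to 90.8% (mean 84.7% ± 4.68, SD, n = 4). No cyclosporine A library fell inside the saline range. This left 10280516 to 17250999 fragments on nuclear genes in the saline libraries and 2904752 to 6547097 in the cyclosporine A libraries. In the tacrolimus table the mitochondrial share was 11.9% ± 1.13 with DMSO/PEG and 12.4% ± 1.88 with tacrolimus (SD, n = 6 each). The deposited cyclosporine A values are FPKM, in which a gene's fragments are divided by its length and by the library total, here with mitochondrial fragments included. On that scale the median nuclear gene was lower with cyclosporine A by a log2 fold change of -0.89. Rescaled FPKM, in which libraries were set to the same median ratio over nuclear genes, brought this median to 0.00. Results for cyclosporine A are given on both scales.

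Plvap was lower with cyclosporine A in all 4 libraries than in any saline library. The rescaled level was 18.8, 4.46, 18.3 and 15.2 FPKM in saline replicates 1 to 4, and 1.20, 2.14, 3.40 and 3.82 FPKM in cyclosporine A replicates 1 to 4. Saline replicate 2 stood near the cyclosporine A libraries, and the other 3 saline libraries lay well above them. The mean was 14.2 ± 6.67 FPKM with saline and 2.64 ± 1.20 FPKM with cyclosporine A (SD, n = 4 each), 5.37-fold lower. The log2 fold change was -1.96 (SE 0.41, 95% interval -2.88 to -1.05, limma), with an adjusted p of 0.0675, so Plvap was not called at 0.05. Of the 13457 genes tested, 3, Plvap included, were this low.

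On the deposited scale Plvap fell further. Its deposited level was 37.9, 5.65, 28.0 and 26.1 FPKM with saline and 0.752, 1.77, 2.54 and 1.64 FPKM with cyclosporine A. These groups did not overlap either, with saline replicate 2 again the lowest of its group. The log2 fold change was -3.03 (SE 0.41), with a limma adjusted p of 2.70e-04. The recovered reads behind these values were 2157, 307, 1469 and 1321 fragments with saline and 38, 97, 133 and 86 fragments with cyclosporine A. These numbers rest on a length of 1659 bases, shorter than the listed 2007, which gave whole fragments. The same held for 5 of the 9 genes in this table (Plvap, Cdh5, Kdr, Ehd3 and Eng), and the source of the shorter length is not given in the sources used here. The gene lies on chromosome 16 from 19906318 to 19918689 on the minus strand (rn6, ENSRNOG00000017676).

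One saline library bore on the Plvap call. Without saline replicate 2, the rescaled log2 fold change was -2.40 with a limma adjusted p of 0.0269. Leaving out any other single library gave -2.12 to -1.74, with adjusted p from 0.0666 to 0.183. Saline replicate 2 had the highest mitochondrial share of its group, 68.6%, and the lowest Plvap. Among the cyclosporine A libraries, replicate 4 had the highest share, 90.8%, and the highest rescaled Plvap. With the mitochondrial share as a covariate, the Plvap log2 fold change was -0.60 (SE 0.91) with an adjusted p of 1.00, and 0 of the 9 endothelial genes had an unadjusted p under 0.05 in that limma fit, as 3.09% of all genes did. It called 0 of all 13457 genes. The share separates the groups, so drug and share cannot be told apart in that fit.

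**Figure D1:**
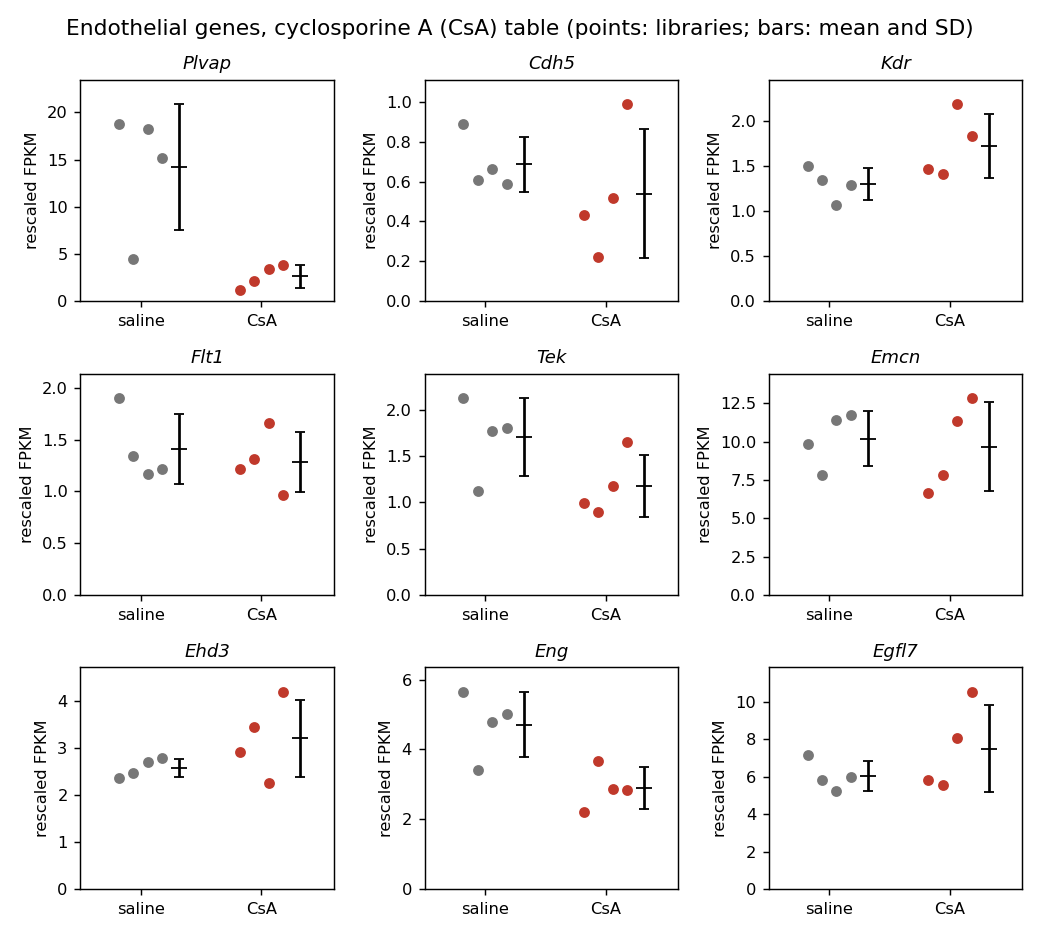
Rescaled FPKM (vertical axes, linear, starting at 0) of 9 endothelial genes in the saline and cyclosporine A (CsA) libraries, with replicates 1 to 4 from left to right as points and the mean ± SD as bars. The Plvap points with cyclosporine A, 1.20 to 3.82, all lie under the saline points, and the groups overlap for the other 8 genes.

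Across all 9 genes, limma called 0 changed with cyclosporine A on rescaled FPKM, where 0.609% of all genes tested were called. Plvap and Eng had an unadjusted p under 0.05, as did 16.2% of all genes. The precision-weighted fit to the recovered fragments (voom) also called 0, with an unadjusted p under 0.05 for 3. Over all genes voom called 269 of 13457 and gave 15.9% an unadjusted p under 0.05. The value was below 0 for 6 genes and above 0 for 3. Their median log2 fold change was -0.10, beside 0.00 over all genes tested. Plvap was the only one of the 9 whose groups did not overlap, a pattern shown in the lower direction by 6.06% of all genes.

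On deposited FPKM all 9 genes fell, as did 80.9% of all genes tested. The median of the 9 was -0.93, beside -0.89 over all genes. The groups did not overlap for 8 of the 9, all but Kdr, and 67.8% of all genes were lower without overlap. Leaving out 1 library at a time left 8 or 9 of the 9 called, beside 72.5% to 81.1% of all genes. Deposited values are divided by a library total that includes mitochondrial fragments, whose share separates the groups. In bulk tissue, fewer endothelial cells and less RNA per cell cannot be told apart on either scale.

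Eng encodes endoglin, a co-receptor for BMP9 and transforming growth factor beta on endothelium (chromosome 3, 11679530 to 11717485, plus strand). Its rescaled level was 5.63, 3.41, 4.77 and 5.02 FPKM with saline and 2.21, 3.67, 2.86 and 2.84 FPKM with cyclosporine A. The groups overlapped, because saline replicate 2 was below cyclosporine A replicate 2. The mean was 1.63-fold lower with the drug, a log2 fold change of -0.55 (SE 0.17, 95% interval -0.92 to -0.18, limma adjusted p = 0.152). On deposited FPKM the change was -1.57 (adjusted p = 5.79e-04).

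Neither receptor for vascular endothelial growth factor was called on rescaled FPKM. Kdr, the main signalling receptor (chromosome 14, 34727623 to 34787183, plus strand), had rescaled levels of 1.50, 1.35, 1.07 and 1.29 FPKM with saline and 1.47, 1.41, 2.19 and 1.83 FPKM with cyclosporine A. Cyclosporine A replicates 3 and 4 were above every saline library, and the other 2 were within the saline range. The log2 fold change was 0.24 (95% interval -0.07 to 0.54, limma adjusted p = 0.428). Its direction depends on the scale, since on deposited FPKM it was -0.56 (adjusted p = 0.0224). Flt1, a receptor that also acts as a decoy for the ligand (chromosome 12, 9034308 to 9205905, plus strand), ranged from 1.17 to 1.90 FPKM with saline and from 0.963 to 1.66 FPKM with cyclosporine A. Its rescaled log2 fold change was -0.07 (95% interval -0.40 to 0.26), and its deposited one was -0.82 (limma adjusted p = 0.00363). The ratio of Kdr to Flt1 in a library does not depend on the scaling. It was 0.789 to 1.06 with saline and 1.08 to 1.90 with cyclosporine A, so the groups lay close without overlapping. The ratio of Eng to Emcn was 0.417 to 0.573 with saline and 0.221 to 0.469 with cyclosporine A, and those groups overlapped. Neither ratio was tested.

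Tek, the angiopoietin receptor also called Tie2 (chromosome 5, 113725717 to 113852799, plus strand), had rescaled levels of 2.12, 1.12, 1.77 and 1.80 FPKM with saline and 0.989, 0.900, 1.18 and 1.65 FPKM with cyclosporine A. As with Plvap and Eng, saline replicate 2 was the lowest of its group, and here it lay inside the drug range. The log2 fold change was -0.31 (95% interval -0.67 to 0.05, limma adjusted p = 0.389) on rescaled FPKM and -1.11 (adjusted p = 8.06e-04) on deposited FPKM.

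Among the junction and surface proteins, Cdh5, the cadherin of endothelial junctions (chromosome 19, 1023683 to 1074365, minus strand), ranged from 0.586 to 0.888 FPKM with saline and from 0.223 to 0.987 FPKM with cyclosporine A. It rested on 20 to 44 fragments in the cyclosporine A libraries, the fewest of the 9 genes. Emcn, a sialomucin of capillaries and veins (chromosome 2, 242634399 to 242714182, plus strand), was at 9.83, 7.85, 11.4 and 11.7 FPKM with saline and 6.68, 7.83, 11.4 and 12.8 FPKM with cyclosporine A. Those groups overlapped. The rescaled log2 fold changes were -0.15 for Cdh5 (95% interval -0.49 to 0.18) and -0.10 for Emcn (95% interval -0.55 to 0.36). Their deposited values were -0.69 and -1.31, both called by limma.

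Ehd3, an endocytic recycling protein that marks glomerular endothelium (chromosome 6, 25074955 to 25100977, plus strand), had rescaled levels of 2.37, 2.47, 2.71 and 2.78 FPKM with saline and 2.92, 3.46, 2.27 and 4.20 FPKM with cyclosporine A. Cyclosporine A replicates 1, 2 and 4 were above every saline library and replicate 3 was below every one. Egfl7, a secreted protein of the endothelial matrix (chromosome 3, 4034921 to 4043936, plus strand), ranged from 5.26 to 7.16 FPKM with saline and from 5.58 to 10.5 FPKM with cyclosporine A. On rescaled FPKM the log2 fold changes were 0.21 for Ehd3 (95% interval -0.14 to 0.56) and 0.24 for Egfl7 (95% interval -0.18 to 0.65), neither called by limma. Both turned negative on deposited FPKM, at -0.78 and -0.93, and both were then called.

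**Figure D2:**
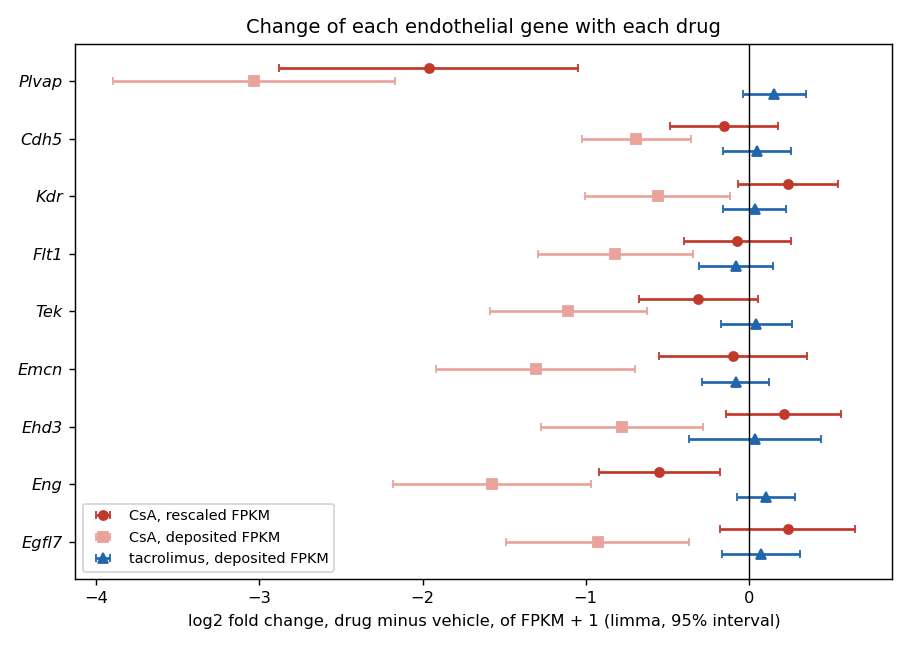
Log2 fold change of FPKM + 1, drug minus vehicle, with its 95% limma interval (horizontal axis), for 9 endothelial genes with cyclosporine A (CsA) on rescaled and deposited FPKM and with tacrolimus. Plvap is at -1.96 and -3.03 with cyclosporine A and at 0.16 with tacrolimus, and all 9 genes lie lower with cyclosporine A on the deposited scale.

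Scaling cancels when Plvap is set against the other 8 genes of the same library. Plvap over the geometric mean of the other 8 was 6.47, 2.06, 7.58 and 6.04 in saline replicates 1 to 4, and 0.623, 1.10, 1.38 and 1.33 in cyclosporine A replicates 1 to 4. Each cyclosporine A library was below each saline library. In the tacrolimus table the ratio had a lowest, median and highest value of 4.88, 5.32 and 6.99 with DMSO/PEG and of 5.51, 5.89 and 7.02 with tacrolimus, and these groups overlapped. The ratio was not tested, and Plvap was set against the others with its values known.

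**Figure D3:**
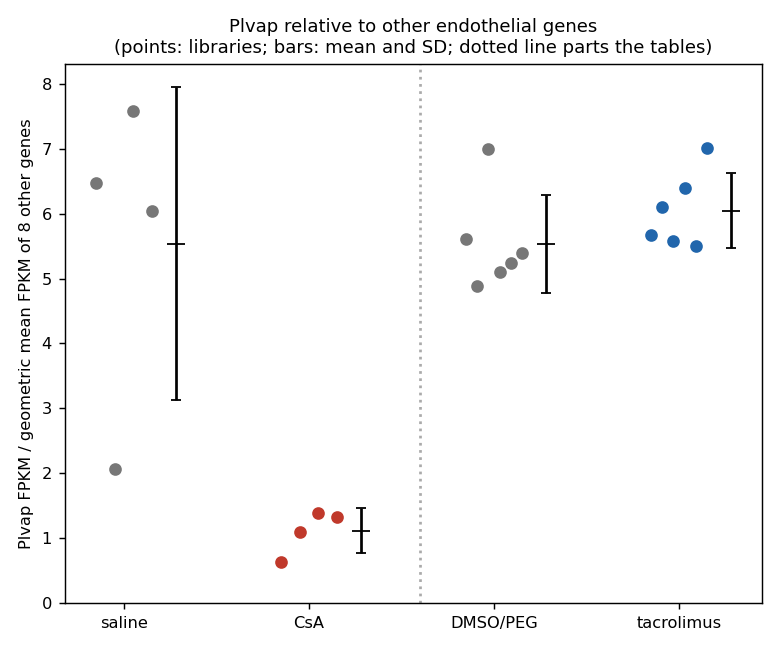
Plvap FPKM divided by the geometric mean FPKM of the other 8 endothelial genes (vertical axis, linear, no unit), 1 point per library, with mean ± SD as bars, for saline, cyclosporine A (CsA), DMSO/PEG and tacrolimus. The cyclosporine A libraries lie at 0.623 to 1.38, under the lowest saline library at 2.06.

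Levels per gene length were ordered within each group. Plvap had the highest mean of the 9 genes with saline, DMSO/PEG and tacrolimus. With cyclosporine A it was 5th on rescaled FPKM, after Emcn (9.68 ± 2.91), Egfl7 (7.51 ± 2.31), Ehd3 (3.21 ± 0.821) and Eng (2.90 ± 0.598; SD, n = 4). The ranges of Ehd3, Eng, Plvap and Kdr overlapped from one to the next there, so their order is not resolved. With saline, Plvap and Emcn (10.2 ± 1.78) overlapped, while Emcn was above Egfl7 (6.06 ± 0.797) in every library. Cdh5 had the lowest mean in all 4 groups.

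With tacrolimus, limma called 0 of the 9 genes, where 0.303% of all 15493 genes tested were called. No gene of the 9 had an unadjusted p under 0.05, as 8.58% of all genes did, and voom also called 0. The value was above 0 for 7 genes and below 0 for 2, with a median log2 fold change of 0.05 beside 0.00 over all genes. The groups overlapped for all 9, and 0.975% of all genes had groups that did not overlap.

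Plvap was at 77.2, 94.3 and 101.7 FPKM (lowest, median and highest) with DMSO/PEG and at 81.4, 104.5 and 117.2 FPKM with tacrolimus. The tacrolimus range reached higher and the groups overlapped. The mean was 92.4 ± 9.02 FPKM with DMSO/PEG and 103.3 ± 12.4 FPKM with tacrolimus (SD, n = 6 each), a log2 fold change of 0.16 (SE 0.09, 95% interval -0.04 to 0.35, limma adjusted p = 0.696).

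Eng was at 36.8, 38.9 and 45.7 FPKM (lowest, median and highest) with DMSO/PEG and at 34.9, 42.4 and 49.9 FPKM with tacrolimus. The tacrolimus range held the whole DMSO/PEG range, and the log2 fold change was 0.10 (95% interval -0.07 to 0.28). Kdr was at 8.57, 10.8 and 12.8 FPKM with DMSO/PEG and at 9.37, 11.0 and 12.4 FPKM with tacrolimus, with a change of 0.04 (95% interval -0.16 to 0.23). For Flt1 and Emcn, the pair below 0, the values were -0.08 (95% interval -0.30 to 0.15) and -0.08 (95% interval -0.29 to 0.13). Emcn was at 35.0, 46.7 and 50.9 FPKM with DMSO/PEG and at 36.9, 41.2 and 47.9 FPKM with tacrolimus. Ehd3 had a lowest, median and highest of 12.9, 14.6 and 29.5 FPKM with DMSO/PEG against 12.9, 17.1 and 22.7 FPKM with tacrolimus. Its interval, -0.37 to 0.44, was the widest of the 9. Cdh5, Tek and Egfl7 had changes of 0.05, 0.05 and 0.07.

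**Figure D4:**
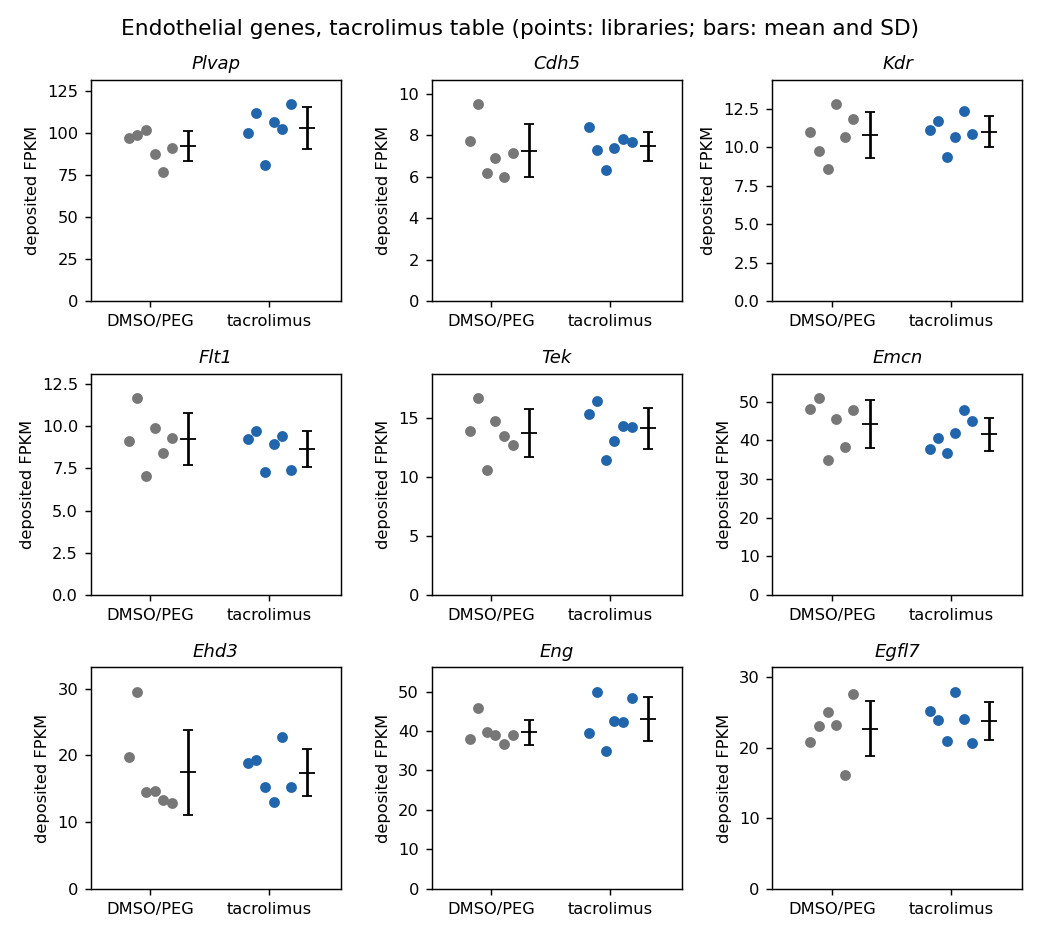
Deposited FPKM (vertical axes, linear, starting at 0) of 9 endothelial genes in the DMSO/PEG and tacrolimus libraries, with replicates 1 to 6 from left to right as points and the mean ± SD as bars. The groups overlap for every gene, with Plvap at 77.2 to 101.7 with DMSO/PEG and 81.4 to 117.2 with tacrolimus.

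For each gene, the tacrolimus change was subtracted from the cyclosporine A change on rescaled FPKM and the difference was tested. Plvap was the 1 gene of the 9 called, where 1.58% of the 13394 genes tested were called and 0.732% were called in the lower direction. The difference was -2.12 (SE 0.42, 95% interval -3.04 to -1.19, adjusted p = 0.0384). It was no longer called without cyclosporine A replicate 1, 2 or 3 or without saline replicate 1, 3 or 4, at -2.23 to -1.90 with adjusted p from 0.0548 to 0.122. It was also not called with no filter on low values (adjusted p = 0.0856) or with voom (adjusted p = 0.0698). The difference for Eng was -0.65 (95% interval -1.05 to -0.25, adjusted p = 0.0921), and the other 7 genes lay between -0.36 for Tek and 0.20 for Kdr. With deposited values all 9 differences were called, all lower, as were 74.9% of all genes.

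Genes that vary with Plvap between libraries of the same group were ranked by the lower of 2 Pearson correlations, over the 8 and the 12 libraries of the tables, after each group's mean was removed. Among 13393 genes the first 5 were Pcolce (r = 0.87 and 0.83), Selenom (0.85 and 0.78), Ly6e (0.93 and 0.77), Cxcl16 (0.75 and 0.76) and Esam (0.77 and 0.75). Esam is an adhesion molecule of endothelial junctions, and Pcolce enhances procollagen processing. Eng was 6th, with r of 0.74 and 0.82. The other members ranked from 268th (Egfl7) to 3481st (Kdr, r = 0.25 and 0.02). None of the first 5 was called with either drug. The correlations are over few libraries, whose depth differed, and values of 1 library share its scaling factor.

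The 36 pairs among the 9 genes had a median r of 0.34 in the cyclosporine A table and 0.45 in the tacrolimus table, with 30 and 34 pairs above 0.

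Other endothelial genes were taken from lists, and none was called with either drug on rescaled FPKM for cyclosporine A and deposited FPKM for tacrolimus. Of 28 pan-endothelial genes tested with cyclosporine A, 13 were below 0 and the median was 0.03. Limma and voom called 0, with an unadjusted p under 0.05 for 5 by limma, beside 16.2% of all genes. The value farthest from 0 was -0.50 for Clec14a, a surface lectin of endothelium (adjusted p = 0.168). On deposited FPKM 22 of the 28 fell, against 80.9% of all genes, with a median of -0.64. With tacrolimus 0 of 29 were called by either tool and the median was 0.00. By limma 2 had an unadjusted p under 0.05, beside 8.58% of all genes. Cav1, the caveolin of endothelial caveolae, was at -0.38 (adjusted p = 0.147). Cldn5, a defining tight junction gene of endothelium, was at 0 in every library of both tables, and Robo4 in every library of the cyclosporine A table.

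Lists for single vessel types had few genes. The peritubular capillary and venous list covers some of the kidney vessels where Plvap is known. Its summed level was 21.8 to 29.1 FPKM with saline and 21.3 to 28.1 FPKM with cyclosporine A on the rescaled scale. The ranges were almost the same. Of its 7 genes tested, 5 were below 0, 0 had an unadjusted p under 0.05 and the median was -0.13, with Igfbp3 farthest at 0.51 (adjusted p = 0.478), or 0.14 without cyclosporine A replicate 4. The glomerular list had 4 of 11 below 0 and a median of 0.08. Pi16 was higher in every cyclosporine A library than in any saline library, at 1.33 ± 0.308 against 0.610 ± 0.166 FPKM (SD, n = 4 each), a log2 fold change of 0.53 (adjusted p = 0.0968). Of all genes, 4.85% were higher without overlap. The arterial list had 2 of 10 below 0, with Sema3g, a secreted guidance protein, farthest at 0.90 (adjusted p = 0.271) and higher in every cyclosporine A library than in any saline library. Without cyclosporine A replicate 4 it was at 0.45 (adjusted p = 0.145). The vasa recta list had 2 of 4 below 0, with the water channel Aqp1, which proximal tubules also express, at -0.71 (limma adjusted p = 0.168). Aqp1 was lower in every cyclosporine A library than in any saline library, as 6.06% of all genes were. The summed rescaled level of this list was 356.9 to 481.0 FPKM with saline and 176.8 to 338.9 FPKM with cyclosporine A. Aqp1 made up most of it, with means of 368.5 and 231.7 FPKM. The sums of the glomerular, arterial and lymphatic lists overlapped between the groups. In the lymphatic list 2 of 5 were below 0, and Ccl21 was at 0.29 (adjusted p = 0.854), which turned to -0.32 without cyclosporine A replicate 4. The cyclosporine A fit gave an unadjusted p under 0.05 to 1 of 11 glomerular, 4 of 10 arterial, 2 of 4 vasa recta and 1 of 5 lymphatic genes, beside 16.2% of all genes, and voom called 0 in each list.

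On deposited FPKM, 7 of 11 glomerular, 5 of 7 peritubular and venous, 4 of 10 arterial, 4 of 4 vasa recta and 3 of 5 lymphatic genes fell with cyclosporine A, beside 80.9% of all genes tested. With tacrolimus the list medians lay between -0.17 for peritubular and venous genes and 0.04 for vasa recta genes, with 0 called by limma or voom. An unadjusted p under 0.05 was found with tacrolimus for 3 of 12 glomerular, 1 of 9 peritubular and venous, 3 of 11 arterial, 1 of 4 vasa recta and 0 of 6 lymphatic genes, beside 8.58% of all genes. Fabp4, a fatty acid carrier of capillaries that adipocytes also express, was at 115.2 ± 46.9 FPKM with DMSO/PEG and 49.7 ± 31.9 FPKM with tacrolimus (SD, n = 6 each, log2 fold change -1.31, adjusted p = 0.244). All 5 adipocyte markers were below 0 in that comparison, with a median of -0.84, and 1 of them, Ucp1, fell (-3.33, limma adjusted p = 8.44e-04). The summed adipocyte level was 34.4 to 85.5 FPKM with DMSO/PEG and 23.5 to 56.5 FPKM with tacrolimus, and its part in the Fabp4 values was not tested. Scin was at 0.35, Gpihbp1 at -0.26, Hey1 at -0.27 and Lyve1 at 0.07, none called.

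**Figure D5:**
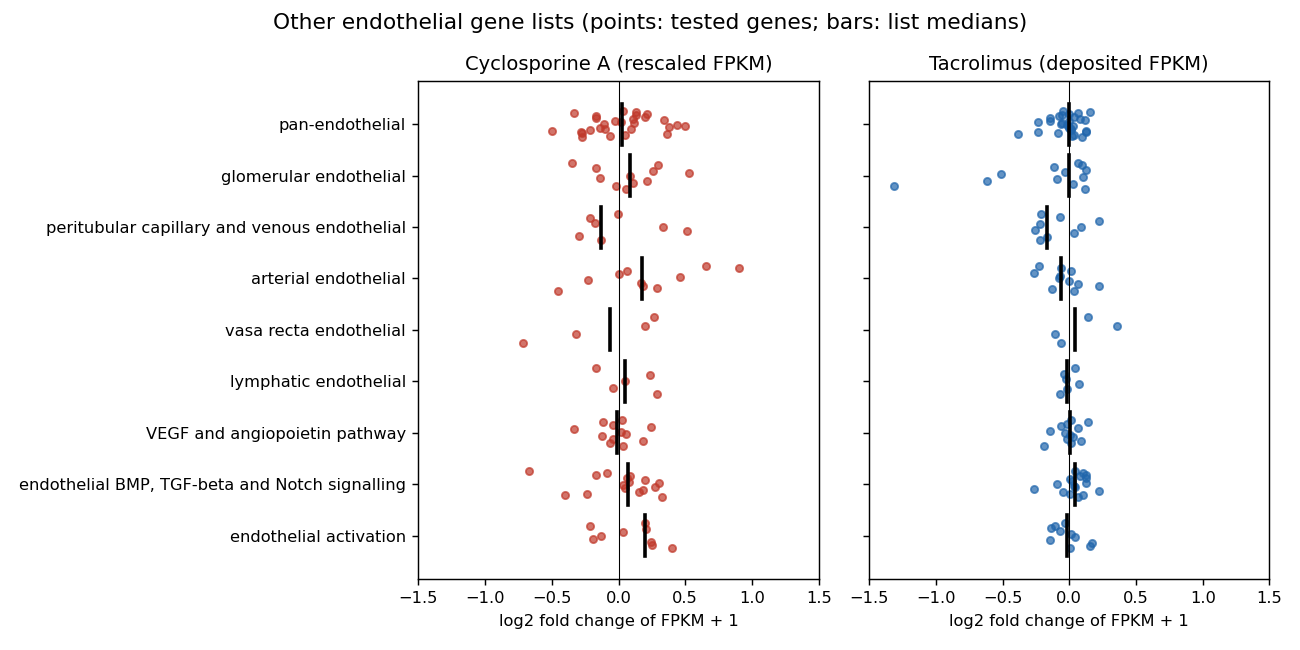
Log2 fold change of FPKM + 1, drug minus vehicle (horizontal axes), of each tested gene (points) in 9 further endothelial lists, with list medians as black bars, for cyclosporine A on rescaled FPKM and tacrolimus on deposited FPKM. Most points lie near 0 in both panels and none passed the limma test; the lowest, Fabp4 with tacrolimus, is at -1.31.

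Ligands and partners of the receptors were not called either. Of 12 genes of the vascular endothelial growth factor and angiopoietin pathway tested with cyclosporine A, 6 were below 0 and the median was -0.01. Tie1, the partner of Tek, was at -0.34 (adjusted p = 0.396). With tacrolimus 6 of 13 were below 0 and Angpt1, a Tek ligand, was at -0.19 (adjusted p = 0.843). Neither limma fit gave any of these genes an unadjusted p under 0.05, beside 16.2% of all genes with cyclosporine A and 8.58% with tacrolimus. Voom called 0 of them. On deposited FPKM 9 of the 12 fell with cyclosporine A, against 80.9% of all genes.

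For endothelial BMP, transforming growth factor beta and Notch signalling, to which Eng belongs, 5 of 16 genes were below 0 with cyclosporine A, with a median of 0.07. Tgfbr2, the type II receptor of transforming growth factor beta, was at 1.78 ± 0.508 FPKM with saline and 0.748 ± 0.318 FPKM with cyclosporine A (SD, n = 4 each). Its groups did not overlap, as for the 6.06% of all genes that were lower without overlap, and the log2 fold change was -0.67 (limma adjusted p = 0.0999). An unadjusted limma p under 0.05 was found for 2 of the 16, and for 3 of 17 with tacrolimus, where the median was 0.05. Over all genes, 16.2% had such a p with cyclosporine A and 8.58% with tacrolimus. Genes of endothelial activation had a median of 0.20 with cyclosporine A (3 of 9 below 0, 1 with an unadjusted p under 0.05), with the vasoconstrictor peptide gene Edn1 at 0.40 (adjusted p = 0.194). With tacrolimus their median was -0.01 (5 of 10 below 0, 0 with an unadjusted p under 0.05) and the flow-induced factor Klf2 was at 0.17. Neither limma nor voom called a gene of these lists. On deposited FPKM 14 of 16 and 6 of 9 fell with cyclosporine A, against 80.9% of all genes.

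Markers of other cell types were read in the same libraries, on rescaled FPKM for cyclosporine A. All 6 red blood cell markers tested were above 0, with a median of 1.40 and 0 called by limma or voom. By limma 3 had an unadjusted p under 0.05, beside 16.2% of all genes. Their summed level was 383.9 to 1007 FPKM with saline and 591.0 to 5760 FPKM with cyclosporine A. Podocyte markers had 1 of 8 below 0 and a median of 0.35, with 0 called. Of 5 distal tubule markers, 4 were below 0 and 2 fell, Calb1 at -1.85 and Umod at -1.36 (limma adjusted p = 0.0251 and 0.0489), where 0.609% of all genes were called. Voom called 3 of the 5, beside 2% of all genes. Of 7 proximal tubule markers, 5 were below 0, the median was -0.10 and 5 had an unadjusted limma p under 0.05, beside 16.2% of all genes. Their summed level was 475.5 to 680.7 rescaled FPKM with saline and 246.7 to 550.4 rescaled FPKM with cyclosporine A. Limma called 1 of the 7, the glucose transporter gene Slc5a2, which rose (0.93, adjusted p = 0.0382), and voom called 2. Leaving out 1 library at a time, the call was lost in 5 of 8 fits for Calb1, 8 of 8 for Umod and 7 of 8 for Slc5a2, with no change of sign. Leaving out libraries was added for the genes of these lists after seeing the data. Fibroblast, leukocyte and adipocyte markers had medians of 0.31, -0.09 and 0.08, with 0 called by limma or voom and 0 with an unadjusted p under 0.05. The part of these cells in the Plvap values was not tested. With tacrolimus, 3 of 5 distal tubule markers fell, Calb1 (-3.81), Slc12a3 (-1.24) and Trpm6 (-0.85), where 0.303% of all genes were called. No marker of the proximal tubule, podocyte, fibroblast, leukocyte or red blood cell lists was called by limma or voom, with medians from -0.28 to 0.02. In all, 3 genes of these lists had an unadjusted limma p under 0.05, beside 8.58% of all genes.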

How the data were processed

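Whole-kidney RNA-seq of 20 rat libraries was analysed from 2 deposited tables. The authors deposited FPKM values per gene. HISAT2 and rn6 are named in the submitters' processing notes, and the counter, annotation release and strand setting are not given in the sources used here. Fragments were recovered as whole numbers (tolerance 0.01 fragments) with the listed gene length for 100% of values in the tacrolimus table and 74.6% in the cyclosporine A table, where 4441 of 18892 detected genes needed a shorter length. Deposited cyclosporine A FPKM is relative to all fragments, and tacrolimus FPKM follows median-of-ratios size factors (largest deviation 0.0398%). Rescaled FPKM applies such factors, over nuclear genes, to cyclosporine A.

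Genes with at least 10 fragments at the median library size in as many libraries as the smaller group, and 15 in total, were tested with limma 3.58.1 (R 4.3.3) on log2(FPKM + 1), with a trend and Benjamini-Hochberg adjustment over all genes tested. Called means an adjusted p under 0.05. The pseudocount understates changes of low genes. The difference between drugs used both limma standard errors with Satterthwaite degrees of freedom. The script was tested on simulated data. Alternatives were another pseudocount, no filter and a stricter filter, voom, no trend, other scalings, a mitochondrial covariate, a replicate block and leaving out libraries.

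The members and the 17 further lists were chosen with earlier results of these data known. From each list and comparison, up to 3 called genes with the largest change were named, or else the 1 with the largest. The result of 1 list is not reported here. Labels number the replicates but do not tie each to an animal, so p-values measure the spread between these samples. Within groups, pairs of libraries differed by a chi-square of at least 21.3 (cyclosporine A) and 16.7 (tacrolimus) per degree of freedom, so none was treated as a copy. The tables were normalized separately, and levels were not compared across them. Promoters came from RefSeq, GRCr8.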

Additional observations from a re-analysis of the deposited data

Results flagged for a closer look

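Eng in DMSO/PEG vehicle replicate 2 stood apart from its group, at 45.7 FPKM against 39.8 for the nearest library and 36.8 for the lowest. It was 1 of 36 groups of libraries checked, and chance alone marks about 1 group in 20. The Plvap change differed between the drugs by a log2 value of -2.12 (cyclosporine A change minus tacrolimus change, adjusted p = 0.0384, from limma fits). The call was lost with no filter, with voom (adjusted p = 0.0856 and 0.0698) and in 6 of the 20 fits that left out 1 library, where adjusted p reached 0.122. Plvap was lower than all 4 saline libraries in 4 of 4 cyclosporine A libraries. It was lower than all 6 DMSO/PEG libraries in 0 of 6 tacrolimus libraries. Over all genes, 6.06% were lower without overlap with cyclosporine A. With tacrolimus, 0.975% had groups that did not overlap, in either direction.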

How the results depend on the processing

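None of the 9 endothelial genes was called with tacrolimus under any alternative run, and Plvap stayed below 0 with cyclosporine A under all of them. The cyclosporine A count of called genes went from 0 to 1 with the 10 times stricter filter, where fewer genes were tested and 1.57% of all were called, and to 9 on deposited FPKM. It ranged from 0 to 1 when single libraries were left out, where 1 to 137 of all genes were called. On deposited FPKM that count ranged from 8 to 9, beside 72.5% to 81.1% of all genes, an alternative chosen after seeing the data. The count for the difference between the drugs went from 1 to 0 with no filter and with voom, and to 9 on deposited FPKM, where 75.2% of all genes were called. That count was 0 to 1 when single libraries were left out, where 27 to 266 of all genes were called. The tacrolimus count was 0 in all of these. Over all genes, the cyclosporine A fit called 82, against 1 with no filter, 143 with the stricter filter, 269 with voom and 0 with the mitochondrial covariate, and the difference called 212 against 129 with no filter.

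Deposited FPKM reversed Kdr (-0.56), Ehd3 (-0.78) and Egfl7 (-0.93) with cyclosporine A, and Kdr (-0.59), Flt1 (-0.74), Ehd3 (-0.82) and Egfl7 (-1.003) in the difference. The mitochondrial covariate reversed Flt1 (0.44), Ehd3 (-0.064) and Eng (0.14) with cyclosporine A. The difference for Flt1 turned to -0.032 with pseudocount 0.1 and -0.015 with voom, and that for Emcn to 0.065 when scaled by total nuclear fragments. The cause was not tested. Leaving out single libraries gave -0.15 to 0.021 for Flt1 and -0.23 to 0.049 for Emcn with cyclosporine A, and -0.070 to 0.099 and -0.15 to 0.13 in the difference. With tacrolimus it gave -0.023 to 0.083 for Kdr, -0.020 to 0.10 for Tek, -0.041 to 0.19 for Ehd3 and -0.014 to 0.13 for Egfl7.

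Same-numbered vehicle and drug libraries did not clearly deviate together (r of -0.15 to 0.21 for cyclosporine A and its vehicle, and of -0.15 to 0.18 for tacrolimus). Differently numbered libraries had r of -0.24 to 0.20 and of -0.25 to 0.38. Of the libraries, 3 of 8 and 4 of 12 correlated best with their own number, out of 4 and 6 numbers. The replicate block gave 0, 0 and 1 endothelial genes called for cyclosporine A, tacrolimus and the difference, and 6, 44 and 179 genes over all tested, against 82, 47 and 212 without it. In the cyclosporine A libraries Cdh5 rested on 20 to 44 fragments, Plvap on 38 to 133 and Tek on 86 to 127, which limits their precision.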
